A study of Danio rerio with 48 samples.

Results

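Wild-type zebrafish embryos were compared at 36 and 24 hours post fertilisation (hpf). The members are the 14 libraries of noc2l +/+ embryos at these ages, out of 48 libraries in the series, and all genes were examined. The later age has 8 embryos and the earlier age has 6, each embryo being 1 library. The wider study set noc2l -/- embryos beside noc2l +/+ embryos at 24, 36 and 48 hpf, and the 18 mutants of the first 2 ages and the 9 wild types of 48 hpf are used here only where named. Messenger RNA was read by Lasy-Seq, a method that tags the 3′ ends of polyadenylated transcripts during reverse transcription and pools the samples early.

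At 36 hpf the 8 embryos were noc2l +/+, and at 24 hpf the 6 embryos were noc2l +/+ as well. All came from the RIKEN WT (RW) strain and from 1 family, Family232, whose titles carry the allele name agu79. Fish were kept at 28°C on a 14-h light and 10-h dark cycle, and no embryo carried a treatment in the labels. Because all embryos come from a line kept with a mutation, the groups describe 1 family rather than the strain. The sources used here give neither the time of day of sampling nor the staging by form. The library is of a whole embryo, so a lower count of a tissue's transcripts may reflect fewer cells of that tissue or less RNA per cell, and these cannot be told apart.

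As background, the zebrafish embryo at the earlier age has nearly finished making its somites, has a beating heart and blood that has begun to flow, and shows its first pigment. Over the following hours the lens fibres fill with crystallins, the trunk muscle builds up its contractile proteins and primitive red cells load with haemoglobin. Neurons extend axons, and the fin fold grows. The embryo lives on yolk throughout and often has not yet hatched at the later age.

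Sequencing depth moved with age. Totals ran between 4.74 and 6.83 M counts (M, mega) at 36 hpf, with a median of 5.99, against 0.798 and 5.24 M counts at 24 hpf, with a median of 3.52. The mean totals differed by 2.60 M counts (exact permutation test over embryos, two-sided, 3003 rearrangements, p = 0.000666, adjusted over 4 library measures p = 0.00266). Mitochondrially encoded transcripts held 3.45% ± 0.184 of counts at 36 hpf against 2.91% ± 0.418 at 24 hpf (SD, n = 8 and n = 6, exact permutation test, p = 0.0020, adjusted p = 0.0040). The number of genes detected at a common depth of 797752 counts did not differ past the threshold, with 15561 ± 257 at 36 hpf and 15284 ± 444 at 24 hpf (SD, n = 8 and n = 6, exact permutation test, p = 0.161, adjusted p = 0.161). Neither did the share of counts in the 10 most abundant genes, at 14.4% ± 0.924 and 15.7% ± 1.94 (exact permutation test, n = 8 and n = 6, p = 0.128, adjusted p = 0.161).

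Embryos 1 and 4 of 24 hpf stood apart from the others of their age. Embryo 4 had the lowest total, 797752 counts, and lay alone at one end of the first principal component, which held 23.9% of the variance. Embryo 1 lay at one end of the second, which held 16.5%. The rank correlations between embryos of one age ran between 0.913 and 0.936 at 36 hpf, against 0.821 and 0.919 at 24 hpf. The biological coefficient of variation was 27.4% at 36 hpf and 34.8% at 24 hpf, or 32.5% and 32.7% at 24 hpf without embryo 1 and without embryo 4. Whether the labels' replicates share a clutch or a day is not given, so p-values measure the spread between these embryos.

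After the filter on low counts 13813 genes were tested with edgeR's quasi-likelihood test, in which a positive log2 fold change means a higher level at 36 hpf. At an adjusted p under 0.05 the test called 1056 genes, or 7.64% of those tested, of which 601 were higher (4.35%) and 455 lower (3.29%) at 36 hpf. With at least a 2-fold change as well, 420 genes were called (3.04%), 289 of them higher (2.09%) and 131 lower (0.948%). The median log2 fold change over all genes was -0.00418, and the median absolute log2 fold change of called genes was 0.838. The embryos of the 2 ages did not overlap in 394 genes (2.85%), of which 381 were also called (2.76% of genes tested).

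Depth and scaling changed these counts. Without embryos 1 and 4 of 24 hpf, 1024 genes were called, 595 higher and 429 lower, and 826 of them were among the 1056. Scaling by total counts alone moved the median of all genes to -0.125 and turned the split to 436 higher and 869 lower, against 601 and 455 with TMM scaling. Thinning every library to the total of embryo 4 left 7707 genes to test and 143 called, 116 higher and 27 lower, whereas thinning to the 2327434 counts of embryo 1, with embryo 4 left out, called 783, 461 higher and 322 lower. The fits without both embryos and with this second thinning were added after the data were seen.

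**Figure D1:**
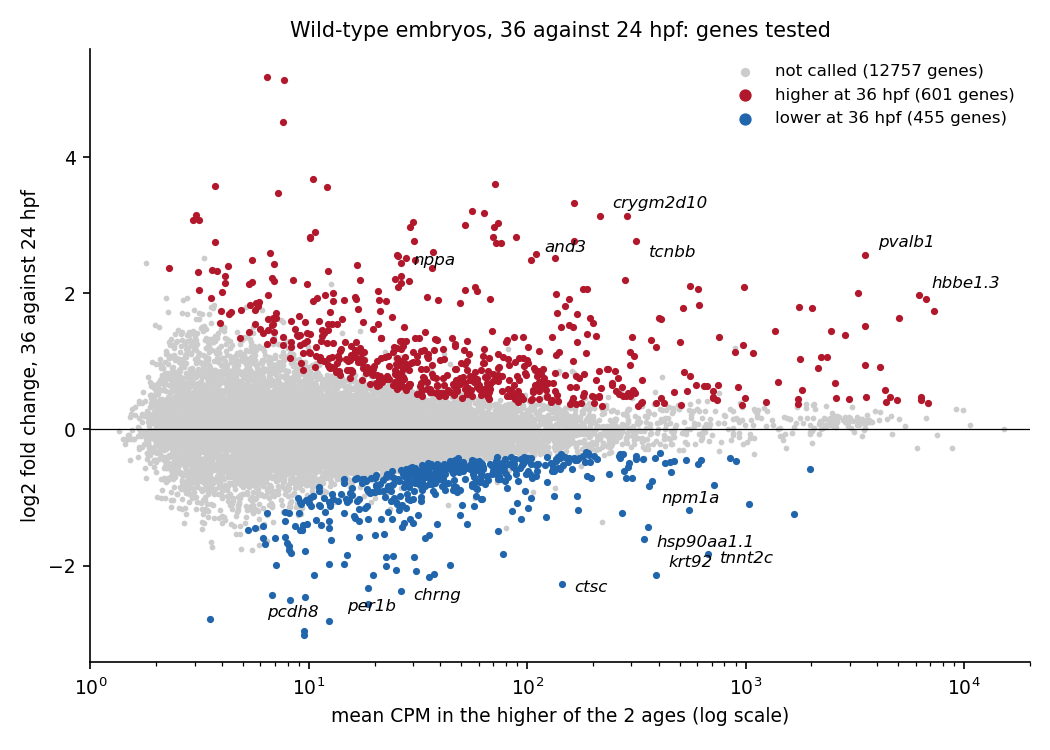
Each point is 1 of the 13813 genes tested. The horizontal axis is the mean CPM (counts scaled to 1 M per library) in the age where the gene is higher, on a log scale, and the vertical axis is the log2 fold change of 36 against 24 hpf. Red points are the 601 genes called higher and blue points the 455 called lower at 36 hpf, with 14 genes of the text labelled.

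The plot of fold change against level shows called rises up to the highest levels, among them the muscle gene pvalb1 and the globin gene hbbe1.3. No called fall reached the level of either. tcnbb, a transcobalamin-like gene added after its values were seen, averaged 316 ± 38.4 CPM at 36 hpf and 47.9 ± 15.3 CPM at 24 hpf (SD, n = 8 and n = 6). In 36 gene lists, each named for a tissue or a process, the members were then counted against the shares of all genes given above.

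**Figure D2:**
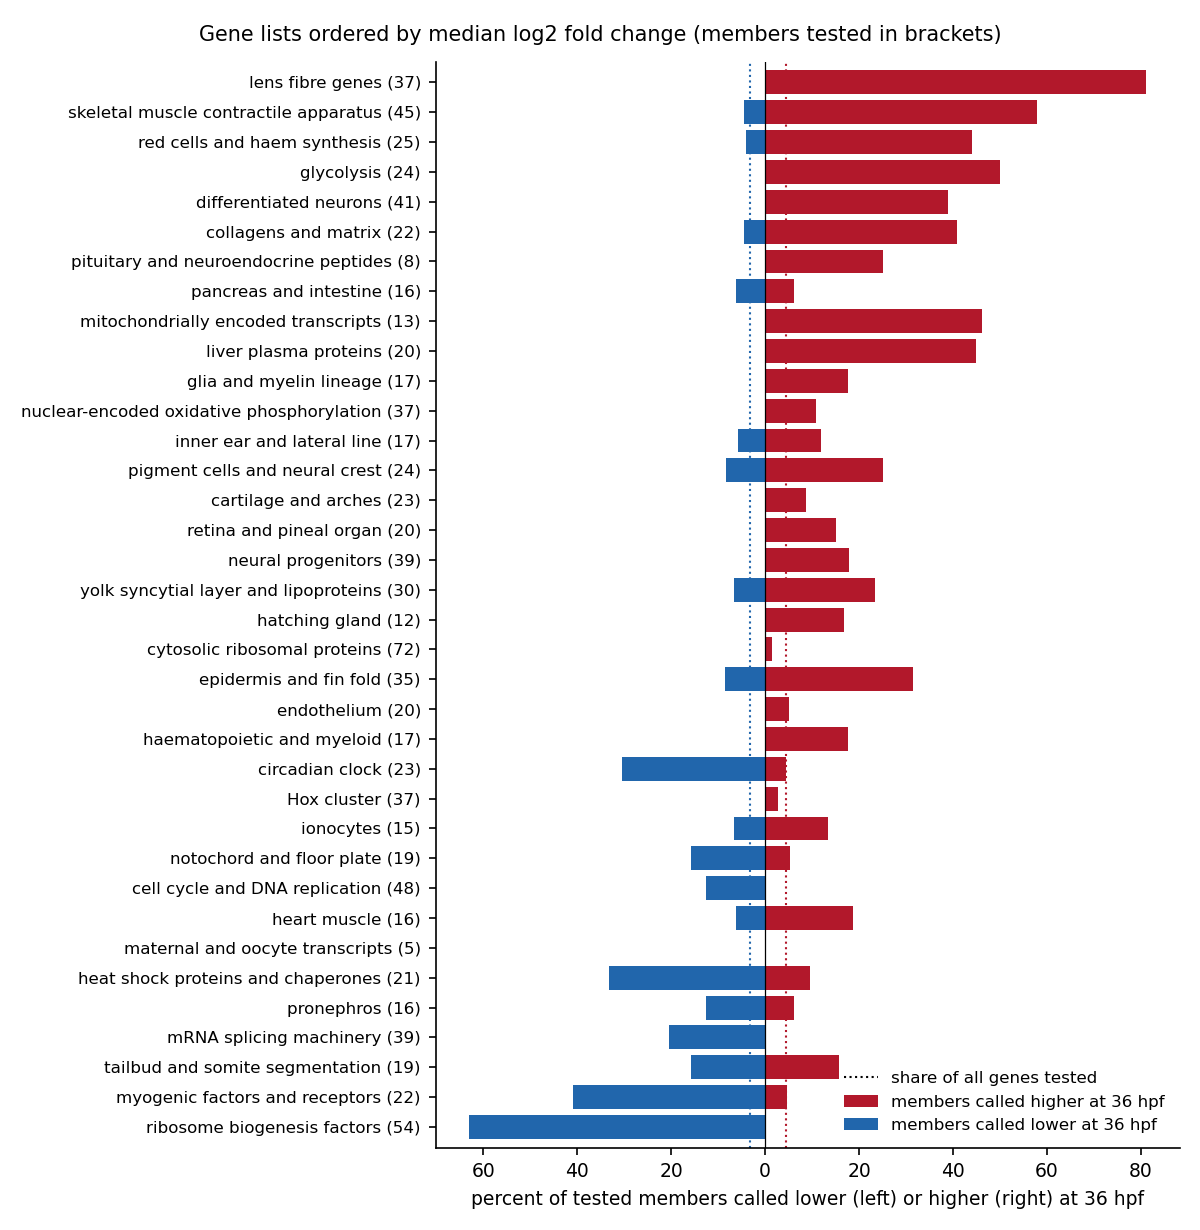
Each row is 1 of the 36 gene lists, ordered by the median log2 fold change of its tested members, with the number tested in brackets. Bars to the right give the percent of members called higher and bars to the left the percent called lower at 36 hpf, and dotted lines mark the shares of all genes, 4.35% higher and 3.29% lower.

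The lens list changed most. Of 63 lens genes 37 passed the filter, and 30 of these (81.1%) rose while none fell, beside 4.35% and 3.29% of all genes. The list holds gamma-M crystallins, near-identical copies between which reads may be divided, so its members are not all independent. Their median log2 fold change was 2.2, beside -0.00418 over all genes, and all 37 values were above 0. The remaining 26 of the 63, with counts too low to test, are not described.

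Gamma-M crystallins, the small soluble proteins that pack fish lens fibres, led the list. In crygm2d10 the lowest, median and highest embryos had 51.3, 208 and 324 CPM at 36 hpf, against 12, 23.6 and 40.8 CPM at 24 hpf. The ages did not overlap, and the log2 fold change was 3.13 ± 0.43 (SE, edgeR adjusted p = 0.000415). crygm2d17 had 81.0, 288 and 440 CPM at 36 hpf against 18.4, 36.5 and 54.1 CPM at 24 hpf, again without overlap. The same held for crygm2d8, with 51.5, 166 and 236 CPM at 36 hpf against 4.59, 16.8 and 24.5 CPM at 24 hpf, and a log2 fold change of 3.32 ± 0.41 (SE, edgeR adjusted p = 0.000192).

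In a family set assembled after the values were seen, and so given without a test of its own, all 21 tested gamma-M crystallins out of 34 in the table were called higher, with log2 fold changes between 1.91 and 3.60 and a median of 2.83. A member low at 24 hpf could pass the filter on its counts at 36 hpf alone, whereas a member low at both ages was not tested. The filter may therefore have set part of this count. The largest was that of crygm2d2, at 71.3 ± 37.1 CPM in 36 hpf embryos and 5.84 ± 2.05 CPM in 24 hpf embryos (SD, n = 8 and n = 6). crygm2d4, crygm2d6, crygm2d9, crygm2d12 and crygm2d20 rose by between 2.97 and 3.18 on the log2 scale. These genes are near-identical copies, so reads may have been divided between them and the value of any 1 member is uncertain. Embryo 3 of 36 hpf was the lowest of its age in crygm2d10 and crygm2d17, and no gamma-M member named here lost its call when any 1 embryo was left out. Other alternatives did cost calls. With limma voom crygm2d2 lost its call (adjusted p = 0.0740), and with the replicate block crygm2d12 did (adjusted p = 0.0683). Thinning to the shallowest total cost that of crygm2d6 (adjusted p = 0.0576). Of the 21, voom called 17 higher, the block 19 and this thinning 14.

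Other lens families rose too. The gamma-N crystallin crygn2 averaged 279 CPM at 36 hpf against 60.9 CPM at 24 hpf (log2 fold change 2.2 ± 0.32, adjusted p = 0.00059). The beta crystallin cryba4 averaged 180 CPM at 36 hpf against 43.7 CPM at 24 hpf (2.06 ± 0.35), and cryba2b 150 against 42.4 CPM (1.82 ± 0.21). The fibre membrane proteins followed, with lim2.1 at 34.1 CPM at 36 hpf against 12.5 CPM at 24 hpf (1.43 ± 0.20) and mipa, the aquaporin of the lens, at 35.2 against 17.1 CPM (1.05 ± 0.26).

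crybb1, a beta crystallin, did not follow them. Its lowest, median and highest values were 37.9, 61.3 and 176 CPM at 36 hpf, against 7.51, 87.8 and 97.0 CPM at 24 hpf, and the ages overlapped (log2 fold change 0.38 ± 0.52, edgeR adjusted p = 0.768). Among genes of at least 50 CPM it had the second largest spread at 24 hpf, with an SD of 1.45 on the log2 scale, the value of 7.51 CPM being that of embryo 1 and 33.3 CPM that of embryo 2. At 36 hpf embryos 3 and 8 held 176 CPM each, above all others of their age.

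Among skeletal muscle transcripts, called genes of the contractile apparatus were mostly higher, and called myogenic factor and receptor genes mostly lower. Of 51 contractile apparatus genes 45 were tested, and 26 rose (57.8%, beside 4.35% of all genes) while 2 fell (4.44%, beside 3.29%), with a median log2 fold change of 0.888. Of 25 myogenic factors and synaptic receptor genes 22 were tested, and 1 rose (4.55%) while 9 fell (40.9%), with a median of -0.405. A family of 22 fibre assembly factors was put together after the values were seen, so it is given without a test of its own. It shares mymk, smyd1a and smyd1b with the regulators and hsp90aa1.1 with the heat shock list. Of its 18 members that passed the filter 1 was higher (5.56%, near the 4.35% of all genes) and 13 were lower (72.2%, beside 3.29%). With the replicate number as a block 9 were lower, and with thinning to the shallowest total 3 were.

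**Figure D3:**
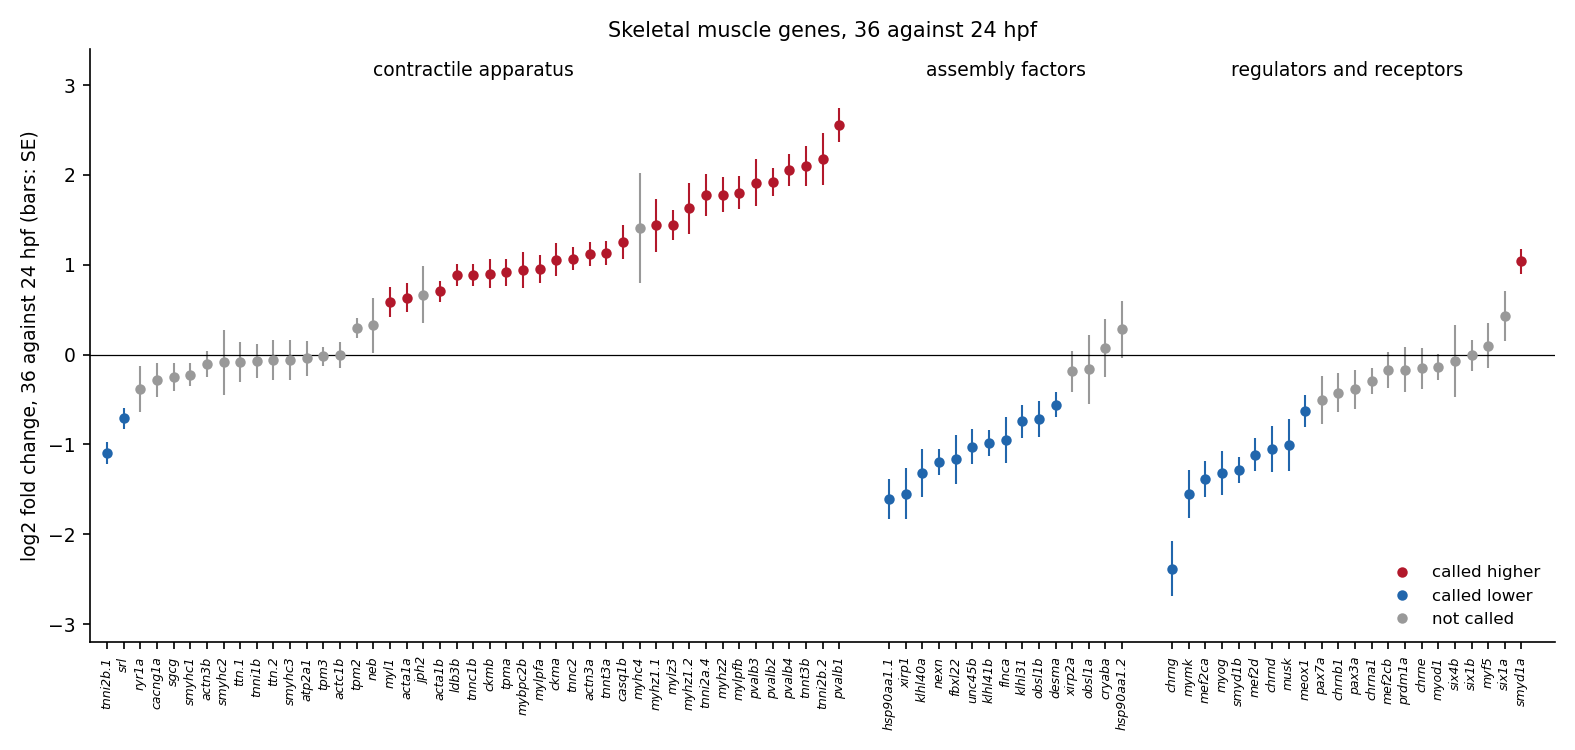
Each point is 1 tested muscle gene, with its log2 fold change of 36 against 24 hpf on the vertical axis and its standard error as a bar. Contractile genes stand at the left, the other assembly factors in the middle and regulators and receptors at the right, each ordered by fold change, with called genes in red (higher) or blue (lower). Most contractile genes lie above 0, up to pvalb1 at 2.56, and most of the rest lie below it, down to chrng at -2.38.

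Parvalbumins, calcium-binding proteins that speed the relaxation of fast fibres, held the largest rise of the list. The lowest, median and highest embryos held 2349, 3585 and 4474 CPM of pvalb1 at 36 hpf, against 332, 649 and 800 CPM at 24 hpf. The ages were far apart, at a log2 fold change of 2.56 ± 0.19 (SE, edgeR adjusted p = 1.94e-09). pvalb2 averaged 6666 CPM at 36 hpf against 1760 CPM at 24 hpf (1.92 ± 0.15), and pvalb4 608 against 146 CPM (2.06 ± 0.18). Of the 8 tested parvalbumins 6 were called higher (75%, beside 4.35% of all genes).

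Fast myosin heavy chain genes were higher in 3 of 5 tested (60%, beside 4.35% of all genes). The fast heavy chain genes myhz2, myhz1.2 and myhz1.1 rose by 1.78 ± 0.20, 1.63 ± 0.29 and 1.44 ± 0.30 on the log2 scale, while myhz1.3 at 0.33 ± 0.30 was not called. These 4 are close copies and their split is uncertain. The slow heavy chain gene smyhc1 was not called (-0.22 ± 0.13), nor were both titin genes, ttn.1 (-0.08) and ttn.2 (-0.06). Creatine kinase ckma rose to 2221 CPM at 36 hpf, against 1066 CPM at 24 hpf.

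The troponins, which make the thin filament sensitive to calcium, were mostly higher or not called. Of 18 tested, 9 rose (50%, beside 4.35% of all genes), 2 fell (11.1%, beside 3.29%) and 7 were not called. The fast troponin I gene tnni2b.2 had a lowest, median and highest value of 19.2, 28.8 and 38 CPM at 36 hpf, against 1.34, 5.73 and 13.2 CPM at 24 hpf (log2 fold change 2.18 ± 0.29, edgeR adjusted p = 3.28e-06). Its neighbour in name tnni2b.1 went the other way, at 485 CPM at 36 hpf against 1038 CPM at 24 hpf (-1.10 ± 0.12). Among troponin T genes, tnnt3b averaged 988 CPM at 36 hpf against 231 CPM at 24 hpf, tnnt2d 155 against 41.7 CPM and tnnt2e 27.9 against 5.92 CPM. By contrast tnnt2c fell to 188 CPM at 36 hpf, against 671 CPM at 24 hpf (-1.84 ± 0.14).

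chrng, the gamma subunit of the embryonic acetylcholine receptor of muscle, had one of the largest falls among genes of at least 10 CPM. Its lowest, median and highest values were 2.27, 4.09 and 11 CPM at 36 hpf, against 8.83, 23.7 and 43.4 CPM at 24 hpf. The ages overlapped in their extremes, and the log2 fold change was -2.38 ± 0.31 (SE, edgeR adjusted p = 3.91e-06). Other receptor genes fell too, chrnd by 1.05 and musk, the kinase that organises the synapse, by 1.01 on the log2 scale, while chrne, the subunit that replaces gamma in mammals, stood at -0.15 and was not called.

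mymk, the fusion protein myomaker, held 3.84, 10.4 and 21.2 CPM at 36 hpf against 28.3, 31.1 and 58.0 CPM at 24 hpf, with no overlap (log2 fold change -1.56 ± 0.27, edgeR adjusted p = 0.00025). The differentiation factors myog and mef2ca fell by 1.32 and 1.38 on the log2 scale. Fibre assembly factors fell with them, among them unc45b (-1.02 ± 0.19), nexn (-1.19 ± 0.14) and klhl41b (-0.98 ± 0.15). The myosin methyltransferases parted, with smyd1b at 50 CPM at 36 hpf against 122 CPM at 24 hpf (-1.28 ± 0.14) and smyd1a at 81.4 against 39.6 CPM (1.04 ± 0.14). The determination factors myf5 (0.10) and myod1 (-0.14) were not called.

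Called red cell genes were higher with 1 exception. Of 28 genes for globins, haem synthesis and red cell differentiation, 25 were tested. Of these 11 rose (44%, beside 4.35% of all genes) and 1 fell (4%, beside 3.29%), with a median log2 fold change of 0.677. The lowest, median and highest embryos had 4668, 6690 and 7171 CPM of hbbe1.3, an embryonic beta globin, at 36 hpf, against 706, 1679 and 1966 CPM at 24 hpf. Each embryo of the later age lay above each of the earlier (log2 fold change 1.98 ± 0.17, edgeR adjusted p = 5.87e-09), and embryo 1 was the lowest at 24 hpf.

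hbbe1.2 rose by 2.01 ± 0.19 on the log2 scale, hbae3 by 1.64 ± 0.13 and hbae1.3 by 1.73 ± 0.15. Of the 9 tested globin genes 8 were called higher (88.9%, beside 4.35% of all genes). Globin genes are close copies, so their single values are uncertain. The red cell anion exchanger slc4a1a averaged 95.6 CPM at 36 hpf against 38.1 CPM at 24 hpf, carbonic anhydrase cahz 135 against 64.2 CPM, and alas2, which starts haem synthesis in red cells, 65.9 against 35.9 CPM. blf, a zinc finger factor of blood precursors in zebrafish, fell to 4.24 CPM at 36 hpf, against 10.8 CPM at 24 hpf (-1.34 ± 0.32).

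White cell genes numbered 17 tested of 26, with 3 higher (17.6%, beside 4.35% of all genes) and none lower. The median was 0.0528, or -0.0804 with scaling by total counts. The 3 were lyz, mpx and cxcr4b. Lysozyme lyz, made by neutrophils and macrophages, had 79.7, 138 and 162 CPM at 36 hpf against 20.4, 31.4 and 56.7 CPM at 24 hpf, with no overlap (log2 fold change 1.99 ± 0.18, edgeR adjusted p = 4.79e-09). Myeloperoxidase mpx, a neutrophil enzyme, averaged 14.4 ± 4.61 CPM at 36 hpf and 3.86 ± 1.84 CPM at 24 hpf (SD, n = 8 and n = 6). Of 20 tested endothelial genes only pecam1 rose (5%, near the 4.35% of all genes), by 0.97 ± 0.26 on the log2 scale, and none fell. The median was 0.0664, or -0.0605 with scaling by total counts.

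The genes plotted by embryo show how far single animals kept to their age.

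**Figure D4:**
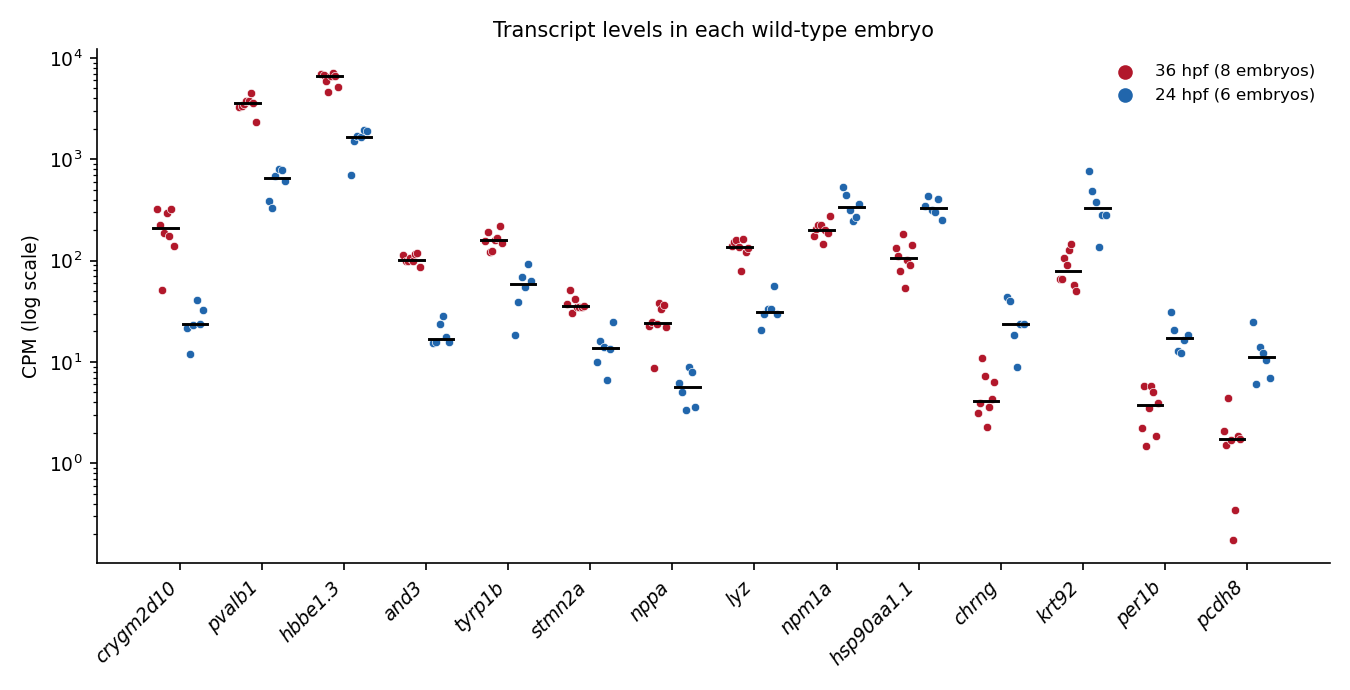
Each point is 1 wild-type embryo, with CPM on a log scale on the vertical axis, 36 hpf in red at the left and 24 hpf in blue at the right of each gene, and a black bar at the median. The 2 ages are apart in pvalb1, hbbe1.3, and3, tyrp1b, stmn2a, lyz, hsp90aa1.1, per1b, pcdh8 and crygm2d10, and they overlap in nppa, npm1a, chrng and krt92.

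Called genes of differentiated neurons were all higher. Of 55 genes 41 were tested, 16 rose (39%, beside 4.35% of all genes) and none fell, with a median log2 fold change of 0.588, and 40 of the 41 values were above 0. With scaling by total counts 10 rose. stmn2a, a stathmin that regulates microtubules in growing axons, had 30.6, 35.3 and 50.9 CPM at 36 hpf against 6.62, 13.6 and 24.5 CPM at 24 hpf. The ages were apart (log2 fold change 1.34 ± 0.20, edgeR adjusted p = 1.1e-05).

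nsfa, which frees vesicle fusion complexes, averaged 16.2 ± 2.2 CPM at 36 hpf and 7.29 ± 2.13 CPM at 24 hpf (SD, n = 8 and n = 6), a log2 fold change of 1.15 ± 0.23. Synaptic release genes among the rises were snap25b (1.24), syt1a (1.00) and snap25a (0.72). Axonal genes were gap43 (0.77) and the neurofilament nefmb (0.86), and slc6a5, the glycine transporter of inhibitory neurons, rose by 0.91. The pan-neuronal RNA-binding gene elavl3 averaged 67.4 CPM at 36 hpf against 44.4 CPM at 24 hpf (0.60 ± 0.18).

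Neural progenitor genes moved less, with 7 of 39 higher (17.9%, beside 4.35% of all genes), none lower and a median of 0.168. Under scaling by total counts 5 were higher and 2 lower. The Delta ligands, through which newborn neurons hold back their neighbours, were dlb (148 CPM at 36 hpf against 85.7 CPM at 24 hpf), dla (122 against 81.0 CPM) and dld (66.3 against 46.9 CPM). neurod4, a neuronal differentiation factor, had 81.4, 98.5 and 148 CPM at 36 hpf against 36.4, 59.9 and 72.2 CPM at 24 hpf, without overlap (log2 fold change 0.90 ± 0.15, edgeR adjusted p = 9.75e-05). otx2b, a forebrain and midbrain factor, rose by 0.88 ± 0.21.

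In the retina and pineal list 3 of 20 tested genes rose (15%, beside 4.35% of all genes) and none fell (median 0.187). Among the 3 is neurod4, which is also counted above with the neural progenitors. The count was 1 without embryo 2, 5 or 6 of 24 hpf or embryo 5, 6 or 7 of 36 hpf, with the median between 0.0472 and 0.373 when any 1 embryo was left out, and 1 with a median of 0.0763 under scaling by total counts. atoh7, needed for retinal ganglion cells, had one of the largest rises and one of the widest spreads. Its lowest, median and highest values were 4.22, 35.8 and 55.6 CPM at 36 hpf, against 0.225, 2.36 and 15.4 CPM at 24 hpf, and the ages overlapped. The log2 fold change was 3.04 ± 0.84 (SE, edgeR adjusted p = 0.0467). The call was lost in 10 of the 14 fits that left out 1 embryo, those without embryos 2, 3, 5 and 6 of 24 hpf and without embryos 1, 2, 4, 5, 6 and 7 of 36 hpf, where the fold change ran between 2.72 and 3.12 and the adjusted p between 0.0594 and 0.114. Without embryo 1 of 24 hpf it was 3.63. Of the 41 listed genes 21 were not tested.

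Of 17 tested glial genes 3 rose (17.6%, beside 4.35% of all genes) and none fell (median 0.315). These were ptgdsb.1, a lipocalin-type prostaglandin synthase (0.98 ± 0.19), slc1a2b, a glutamate transporter of astroglia (0.99 ± 0.22), and pou3f1, a Schwann cell factor that neurons also express (0.86 ± 0.13).

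The skin and fin fold list mixed rises and falls. Of 35 tested genes 11 rose (31.4%, beside 4.35% of all genes) and 3 fell (8.57%, beside 3.29%). The median of 0.110 became -0.00908 under scaling by total counts. The actinodins, structural proteins of the fin fold's actinotrichia that fish have and land vertebrates lack, all rose. and3 had 86.5, 102 and 119 CPM at 36 hpf against 15.4, 16.7 and 28.7 CPM at 24 hpf. No embryo of one age came near the other (log2 fold change 2.48 ± 0.15, edgeR adjusted p = 7.06e-14), and and1 and and2 rose by 1.37 ± 0.12 and 1.64 ± 0.13.

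Keratins, the intermediate filaments of the epidermis, split. krt92 had 50.3, 78.5 and 145 CPM at 36 hpf against 137, 332 and 760 CPM at 24 hpf, overlapping at their extremes (log2 fold change -2.14 ± 0.36, edgeR adjusted p = 0.00217). krt99 fell by 1.99 and krt5 by 1.25 on the log2 scale. In the opposite direction krtt1c19e averaged 609 CPM at 36 hpf against 171 CPM at 24 hpf (1.82 ± 0.31), krt91 400 against 130 CPM (1.63 ± 0.18) and krt18b 88.1 against 43.5 CPM (1.00 ± 0.16). The 19 tested keratins were a set assembled after the values were seen. Among them 6 were higher (31.6%, beside 4.35% of all genes), 3 lower (15.8%, beside 3.29%) and 10 not called. The abundant krt4 (0.29) and cyt1 (0.17) were among the last. The ictacalcins icn and icn2, calcium-binding S100 proteins of fish skin, rose by 1.03 ± 0.11 and 1.23 ± 0.13.

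Collagens and matrix genes had 9 of 22 higher (40.9%, beside 4.35% of all genes) and 1 lower (4.55%, beside 3.29%), with a median of 0.462. Collagen VI led, with col6a1 at 29.9, 39 and 50.2 CPM at 36 hpf against 10.0, 22.4 and 23.3 CPM at 24 hpf, without overlap (log2 fold change 1.02 ± 0.18, edgeR adjusted p = 0.00019). Its partner chain gene col6a2 rose by 0.97 ± 0.18 and the collagen I genes col1a1a, col1a1b and col1a2 by 0.65, 0.72 and 0.49. The exception was col14a1a, a fibril-associated collagen, at 17.7 CPM at 36 hpf against 33 CPM at 24 hpf (-0.89 ± 0.21). In cartilage and arches 2 of 23 tested genes rose (8.7%, beside 4.35% of all genes) and none fell (median 0.189). The 2 were the arch factor barx1 (1.58 ± 0.27) and the cartilage matrix gene matn3a (1.07 ± 0.20).

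Of 24 tested pigment cell and neural crest genes 6 rose (25%, beside 4.35% of all genes) and 2 fell (8.33%, beside 3.29%). The median was 0.205. Without embryo 1, 2, 3 or 5 of 24 hpf or embryo 5, 7 or 8 of 36 hpf 1 fell. tyrp1b, an enzyme of melanin synthesis, had 123, 158 and 222 CPM at 36 hpf against 18.4, 59.3 and 92.8 CPM at 24 hpf, with no overlap (log2 fold change 1.51 ± 0.27, edgeR adjusted p = 0.00216). Its copy tyrp1a rose by 1.50 ± 0.31, dct by 0.92 ± 0.17 and the melanosome matrix genes pmela and pmelb by 0.80 and 1.05. gch2, which starts the synthesis of yellow pteridine pigment, averaged 557 CPM at 36 hpf against 322 CPM at 24 hpf.

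crestin, a transcript of premigratory and migrating crest in zebrafish, fell to 51.6 CPM at 36 hpf, against 104 CPM at 24 hpf (-1.0 ± 0.14), and the crest factor foxd3 fell by 0.68 ± 0.21. The endothelin receptor gene ednrab, outside the lists, held 4.14, 6.57 and 15.6 CPM at 36 hpf against 14.9, 30.2 and 55.9 CPM at 24 hpf (log2 fold change -2.09 ± 0.30, edgeR adjusted p = 1.79e-05). The highest value at 36 hpf was that of embryo 3, and it alone overlapped the earlier age.

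Among organs, liver plasma protein genes rose in 9 of 20 tested (45%, beside 4.35% of all genes) with none lower, at a median of 0.344. vtna, a vitronectin gene, had 9.32, 12.9 and 13.6 CPM at 36 hpf against 1.32, 5.49 and 7.22 CPM at 24 hpf, without overlap (log2 fold change 1.27 ± 0.30, edgeR adjusted p = 0.00419). The complement gene c9 averaged 113 CPM at 36 hpf against 50.5 CPM at 24 hpf, ambp 73.5 against 33.1 CPM, fibrinogen fgb 89.3 against 52.9 CPM and haptoglobin hp 109 against 69.4 CPM. rbp2a, a retinoid-binding gene of the list, rose by 1.16 ± 0.27, embryo 3 being lowest at 36 hpf and embryo 1 at 24 hpf.

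In the yolk and lipoprotein list 7 of 30 tested genes rose (23.3%, beside 4.35% of all genes) and 2 fell (6.67%, beside 3.29%). The median was 0.158. Apolipoprotein E gene apoea, which coats lipid particles, had 298, 347 and 480 CPM at 36 hpf against 87.6, 153 and 210 CPM at 24 hpf (log2 fold change 1.31 ± 0.17, edgeR adjusted p = 1.14e-05). The ages did not overlap. The lipid carrier fabp2 went the other way, at 127, 254 and 383 CPM at 36 hpf against 444, 539 and 652 CPM at 24 hpf (-1.18 ± 0.19, edgeR adjusted p = 0.000229), and the protease ctsh fell by 1.16 ± 0.17.

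fabp2 is also the fall of the pancreas and intestine list, where 1 of 16 tested genes rose and 1 fell. Each is 6.25%, beside 4.35% and 3.29% of all genes, and the median was 0.368. The rise was cpa5, a digestive carboxypeptidase, at 3.11 CPM at 36 hpf against 0.511 CPM at 24 hpf. It could pass the filter only through its counts at 36 hpf. Without embryo 2 or 3 of 24 hpf or embryo 1, 2, 4, 5, 6 or 7 of 36 hpf no gene of the list rose. The listed hatching gland genes had 2 of 12 higher (16.7%, beside 4.35% of all genes) and none lower (median 0.155). The 2 were npsn, the protease nephrosin (1.08 ± 0.21), and agr2, a secretory cell chaperone (1.35 ± 0.21), neither of them specific to that gland. Without embryo 1 of 24 hpf 4 of the 12 were higher.

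Heart muscle genes had 3 of 16 higher (18.8%, beside 4.35% of all genes) and 1 lower (6.25%, beside 3.29%), with a median of -0.0693. The natriuretic peptide gene nppa, a marker of working heart muscle, had 8.65, 24.3 and 38.2 CPM at 36 hpf against 3.33, 5.67 and 8.83 CPM at 24 hpf. Embryo 3, the lowest at 36 hpf, was the one that overlapped the earlier age (log2 fold change 2.26 ± 0.29, edgeR adjusted p = 1.41e-06). Its relative nppb averaged 7.61 CPM at 36 hpf against 0.537 CPM at 24 hpf, and could pass the filter only through its counts at 36 hpf. mybpc3, a sarcomere protein of heart, rose by 0.65 ± 0.17. The light chain gene myl4 was called lower, at 6.66 ± 2.62 CPM at 36 hpf and 16.1 ± 15.9 CPM at 24 hpf (SD, n = 8 and n = 6, log2 fold change -1.27 ± 0.36, edgeR adjusted p = 0.0263), with embryo 1 at 48.4 CPM. Without embryo 1 of 24 hpf the change was -0.56 and not called (adjusted p = 0.317), and the call was also lost without embryo 1, 2 or 4 of 36 hpf (adjusted p between 0.0512 and 0.0545).

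The pronephros, ionocyte, ear and pituitary lists had few tested genes, so their shares rest on at most 2 calls in either direction. In the pronephros list, 1 of 16 tested genes rose (6.25%, beside 4.35% of all genes). In the same list 2 fell (12.5%, beside 3.29%), and the median was -0.109. The bicarbonate transporter slc4a4a fell by 0.81 ± 0.18 and cdh17, an adhesion protein of kidney tubules, by 0.64 ± 0.19, while lhx1a, an early kidney and neuron factor, averaged 7.11 CPM at 36 hpf against 2.06 CPM at 24 hpf. The cdh17 call was lost without embryo 2 or 5 of either age (adjusted p between 0.0654 and 0.110). Without embryo 4 of 24 hpf 4 pronephros genes fell, and with thinning to the total of embryo 1 none did.

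Ionocytes, the ion-transporting skin cells, had 2 of 15 tested genes higher (13.3%, beside 4.35% of all genes) and 1 lower (6.67%, beside 3.29%). Their median was -0.0493, with the sodium pump subunit atp1a1a.2 rising by 0.75 ± 0.15 and the proton pump subunit atp6v1ab falling by 0.66 ± 0.16. Without any 1 of embryos 1 to 4 of 24 hpf, or of embryos 1, 2, 3, 4 and 7 of 36 hpf, 1 ionocyte gene rose. Of 17 tested ear and lateral line genes 2 rose (11.8%, beside 4.35% of all genes) and 1 fell (5.88%, beside 3.29%). The median was 0.209, and 4 rose without embryo 3 of 24 hpf. pvalb8, a parvalbumin, had 38.1, 48.7 and 72.6 CPM at 36 hpf against 13.2, 21.3 and 37.4 CPM at 24 hpf, without overlap (log2 fold change 1.17 ± 0.20, edgeR adjusted p = 0.000123). oc90, a protein of the otolith matrix, fell by 0.91 ± 0.23, and without embryo 1 of 24 hpf by 0.71 with an adjusted p of 0.0502. In the pituitary and peptide list 2 of 8 tested genes rose (25%, beside 4.35% of all genes) and none fell. The opioid peptide gene penkb (1.48 ± 0.41) was among the rises. Of the 35 listed 27 were not tested. Leaving out embryo 3 of 24 hpf left none of the 8 called, and leaving out any other embryo left 1 or 2.

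In energy metabolism, of 25 glycolysis genes 24 were tested. Of these 12 rose (50%, beside 4.35% of all genes) with none lower and a median of 0.636. The muscle phosphoglycerate mutase gene pgam2 had 109, 131 and 157 CPM at 36 hpf against 22.1, 53.2 and 65.8 CPM at 24 hpf, without overlap (log2 fold change 1.36 ± 0.16, edgeR adjusted p = 3.99e-07). gapdhs, a glyceraldehyde phosphate dehydrogenase copy, rose by 1.56 ± 0.17, pfkmb by 1.31 ± 0.24, pkmb by 1.28 ± 0.16 and eno3 by 0.85 ± 0.11. pgam2, pfkmb, pkmb and eno3 carry the names of muscle enzymes, and their part in the rise of the muscle list was not tested.

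Of the 37 tested nuclear genes of oxidative phosphorylation 4 rose (10.8%, beside 4.35% of all genes) and none fell, with a median of 0.268. Without embryo 2 of 24 hpf, embryo 1 of 36 hpf or embryo 5 of 36 hpf 2 rose, and 1 with scaling by total counts. The ATP synthase subunit atp5mc1 rose by 0.55 ± 0.14. All 13 mitochondrially encoded transcripts were tested, and 6 rose (46.2%, beside 4.35% of all genes), or 3 with scaling by total counts. None was lower, and the median was 0.367. mt-cyb had 3230, 3477 and 3952 CPM at 36 hpf against 2024, 2765 and 2867 CPM at 24 hpf, with no overlap (log2 fold change 0.47 ± 0.11, edgeR adjusted p = 0.00424), and mt-nd3 rose by 0.46 ± 0.12.

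cox4i1l, a gene named as a copy of a cytochrome oxidase subunit, had the largest fitted rise of the genes that reach 10 CPM, though from few counts. Its lowest, median and highest values were 0.675, 8.78 and 25.9 CPM at 36 hpf, against 0, 0.321 and 2.07 CPM at 24 hpf, where the 6 embryos held 17 counts in all. The ages overlapped (log2 fold change 3.69 ± 0.79, edgeR adjusted p = 0.00649), and without embryos 1 and 4 of 24 hpf the call was lost (adjusted p = 0.0696), as it was with limma voom (adjusted p = 0.274), while without embryo 2 the fold change was 4.63. pygl, glycogen phosphorylase of liver, had 3.68, 9.45 and 25.1 CPM at 36 hpf against 0, 0.957 and 2.82 CPM at 24 hpf, without overlap (2.90 ± 0.46, edgeR adjusted p = 3.55e-05). Antioxidant enzymes were a set put together after the values were seen. Of its 22 tested members 5 were higher (22.7%, beside 4.35% of all genes) and 1 lower (4.55%, beside 3.29%). The rises were led by the mitochondrial dismutase gene sod2 at 21 CPM at 36 hpf against 6.20 CPM at 24 hpf and catalase cat at 20.6 against 7.38 CPM.

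Most of the tested ribosome biogenesis genes fell. This list holds the nucleolar factors that cut, modify and assemble ribosomal RNA, the group to which noc2l itself belongs. Of 57 genes 54 were tested, none rose and 34 fell (63.0%, beside 3.29% of all genes), and all 54 log2 fold changes were below 0, with a median of -0.614. Without embryo 2 of 24 hpf, 22 fell. The list's mean level per embryo did not overlap between the ages, at 4.43 to 4.94 log2 CPM at 36 hpf against 5.05 to 5.53 log2 CPM at 24 hpf.

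Nucleophosmin npm1a averaged 204 CPM at 36 hpf against 362 CPM at 24 hpf (log2 fold change -0.83 ± 0.15, edgeR adjusted p = 0.00033), nucleolin ncl 298 against 457 CPM (-0.62 ± 0.11), and fibrillarin fbl, which methylates ribosomal RNA, 172 against 282 CPM (-0.71 ± 0.11). bop1, of the complex that processes large subunit RNA, had 8.36, 10.51 and 16.8 CPM at 36 hpf against 16.9, 21.6 and 36.3 CPM at 24 hpf. Its ages came close without overlapping (-1.05 ± 0.22, edgeR adjusted p = 0.00114). tbl3, of the small subunit processome, fell by 1.63 ± 0.34, and dkc1, the pseudouridine synthase dyskerin, by 0.77 ± 0.15.

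noc2l, whose protein helps to carry large subunit precursors out of the nucleolus in yeast, held 6.69, 15.6 and 23.1 CPM at 36 hpf against 6.62, 19 and 31.7 CPM at 24 hpf. The ages overlapped throughout, and it was not called (log2 fold change -0.43 ± 0.27, edgeR adjusted p = 0.419). noc3l, whose yeast counterpart binds that of noc2l, was called lower by 0.72 on the log2 scale, and noc4l, named for a yeast factor of the small subunit, by 0.67.

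Further sets, chosen after the values were seen, lie close to this list. Of 10 tested RNA polymerase I subunits and initiation factors 5 were lower (50%, beside 3.29% of all genes) and none higher, twistnb most (-1.03 ± 0.28). Without embryo 1 of 24 hpf 3 were lower, as with the replicate number as a block, and with thinning to the shallowest total none was. Of the 6 Myc family genes, which in other systems drive ribosome production, 3 were lower (50%, beside 3.29% of all genes) and none was higher. The 3 were mych (-1.23 ± 0.29), mycb (-0.72 ± 0.23) and mycn (-0.66 ± 0.16). Without embryo 1 of 24 hpf 1 of them was lower, likewise with the replicate number as a block, and with thinning to the shallowest total none was.

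Of the ribosomal proteins themselves 1 passed the test. All 72 in the table were tested, 1 rose (1.39%, beside 4.35% of all genes) and none fell. The median was 0.125, or -0.00177 with scaling by total counts. The 1 called gene was rplp2, a protein of the ribosomal stalk, at 1467, 1773 and 1902 CPM at 36 hpf against 1029, 1262 and 1473 CPM at 24 hpf, where the extremes of the ages overlap (log2 fold change 0.45 ± 0.11, edgeR adjusted p = 0.0064).

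mRNA splicing genes had no rise and 8 falls in 39 tested (20.5%, beside 3.29% of all genes), with a median of -0.176. sf3a1, of the complex that recognises the branch site, averaged 32.1 CPM at 36 hpf against 58.5 CPM at 24 hpf (-0.86 ± 0.17), and sf3b4 of the same complex fell by 0.58 ± 0.15, or by 0.49 with an adjusted p of 0.0565 without embryo 6 of 24 hpf. The splicing regulator srsf5a fell to 303 CPM at 36 hpf, against 427 CPM at 24 hpf.

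Of 48 tested cell cycle genes none rose and 6 fell (12.5%, beside 3.29% of all genes). The median was -0.0631, and the 6 serve DNA replication. They were pold1, a polymerase subunit (-0.60 ± 0.18), and 5 subunits of the helicase that opens the DNA, mcm3 (-0.43 ± 0.12), mcm2 (-0.42), mcm4 (-0.41), mcm5 (-0.39) and mcm6 (-0.34). Without embryo 2 of 24 hpf 1 cell cycle gene fell, and without embryo 3 or 6 of 24 hpf or embryo 1, 4 or 5 of 36 hpf 2 or 3 did. The mcm3 call was lost without embryo 2 or 6 of 24 hpf or embryo 1 or 5 of 36 hpf (adjusted p between 0.0501 and 0.0825), and that of pold1 without embryo 2, 3, 5 or 6 of 24 hpf or embryo 4 or 5 of 36 hpf (adjusted p between 0.0526 and 0.101).

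The genes of the growing tail were the largest falls of the somite list, in which 19 of 32 genes were tested. Of these 3 rose (15.8%, beside 4.35% of all genes) and 3 fell (15.8%, beside 3.29%), with a median of -0.181. pcdh8, a protocadherin of newly forming somites, had 0.174, 1.72 and 4.43 CPM at 36 hpf against 6.01, 11.3 and 24.6 CPM at 24 hpf. It did not overlap between the ages (log2 fold change -2.82 ± 0.44, edgeR adjusted p = 2.76e-05). msgn1, a factor of the presomitic mesoderm, averaged 1.18 CPM at 36 hpf against 9.46 CPM at 24 hpf, and cdx4, a factor of the tail end, 1.73 against 9.61 CPM, both likewise without overlap. All 3 were low at 36 hpf and could pass the filter through their counts at 24 hpf, whereas genes low at both ages were not tested. The filter may therefore have set part of the count of falls. The 3 rises, hes6 (0.65 ± 0.14), lfng (0.63 ± 0.14) and dld (0.49 ± 0.14), are Notch pathway genes that the nervous system also uses.

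Notochord and floor plate genes had 1 of 19 higher (5.26%, beside 4.35% of all genes) and 3 lower (15.8%, beside 3.29%), with a median of -0.0615. Without embryo 2 or 5 of 24 hpf or embryo 7 or 8 of 36 hpf 2 were higher. ntd5 fell by 0.95 ± 0.19, and cavin4a, a caveolar protein that muscle also makes, rose by 1.08 ± 0.18. In the Hox list 1 of 37 tested genes rose (2.7%, beside 4.35% of all genes) and none fell (median -0.0485). This was hoxb6b, by 0.85 ± 0.25, whose call was lost without embryo 1, 2 or 6 of 24 hpf or embryo 2, 5 or 8 of 36 hpf (adjusted p between 0.0560 and 0.0989). Of 24 maternal and oocyte transcripts 19 had too few counts to test and none of the other 5 was called, h1m, an oocyte linker histone, among them at 1967 CPM (median) at 36 hpf against 1952 CPM at 24 hpf.

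Heat shock proteins and chaperones had 2 of 21 higher (9.52%, beside 4.35% of all genes) and 7 lower (33.3%, beside 3.29%). The median was -0.101. hsp90aa1.1, the Hsp90 copy that zebrafish muscle uses to fold myosin, had 53.9, 106 and 184 CPM at 36 hpf against 253, 330 and 435 CPM at 24 hpf. The ages did not overlap (log2 fold change -1.61 ± 0.22, edgeR adjusted p = 0.000144), and the widely expressed copy hsp90ab1 stood at 0.01 ± 0.11, not called. hspb9 held 5.06, 8.87 and 13.2 CPM at 36 hpf against 16.7, 33.2 and 62.6 CPM at 24 hpf (-2.12 ± 0.26, edgeR adjusted p = 1.92e-06).

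The other small heat shock genes that fell were hspb1 (132 CPM at 36 hpf against 357 CPM at 24 hpf), hspb11 (9.69 against 24.1 CPM) and hspb8 (63.1 against 98.6 CPM). hspb2 was the exception, at 7.71 CPM at 36 hpf against 0.157 CPM at 24 hpf. It could pass the filter only through its counts at 36 hpf, so the filter favoured a rise. The second rise of the list was hsp90b1, the Hsp90 of the endoplasmic reticulum, by 0.64 ± 0.18. Without embryo 2 of 24 hpf or embryo 1 of 36 hpf 1 gene of the list rose.

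Clock genes that light or the day phase drives were among the falls. Of 23 tested genes of 41, 1 rose (4.35%, the same as the share of all genes) and 7 fell (30.4%, beside 3.29%). The median was -0.0374, or 0.0629 without embryos 1 and 4 of 24 hpf. per1b, a period gene of the negative limb of the clock, had 1.48, 3.76 and 5.85 CPM at 36 hpf against 12.1, 17.4 and 31.3 CPM at 24 hpf. The ages did not overlap (log2 fold change -2.33 ± 0.30, edgeR adjusted p = 1.14e-06), and per2 and per3 fell by 1.48 and 0.97.

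The output factor tefa fell to 20.3 CPM at 36 hpf, against 49.4 CPM at 24 hpf (-1.26 ± 0.16), nr1d2b by 1.3 ± 0.31, the cryptochrome cry1a by 1.39 ± 0.33 and cry-dash, a light-dependent DNA repair enzyme, by 1.67 ± 0.40. The repressor nfil3-5 rose by 0.96 ± 0.20. The 2 ages lie 12 h apart, so age and time of day cannot be told apart if all embryos were laid at the same hour. With the counts thinned to those of embryo 1 of 24 hpf and embryo 4 left out, 3 of these genes fell.

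Of the remaining large falls, ctsc, the protease cathepsin C, had 20.8, 29.6 and 37 CPM at 36 hpf against 69.5, 84.6 and 284 CPM at 24 hpf, with no overlap (log2 fold change -2.27 ± 0.35, edgeR adjusted p = 0.000946). ctsll, a cathepsin L relative, had 3.37, 7.94 and 11.5 CPM at 36 hpf against 16.6, 35.4 and 57.8 CPM at 24 hpf. Among the 13 tested cathepsins ctsc, ctsll and ctsh were lower (23.1%, beside 3.29% of all genes). One member, ctsk, was higher (7.69%, beside 4.35%), and 9 were not called. hjv, the BMP co-receptor hemojuvelin, which zebrafish express in somite muscle and notochord, fell by 2.15 ± 0.28, cyp4t8, a cytochrome P450, by 2.07 ± 0.25 and lonrf1l by 2.01 ± 0.30. Early response genes were a set put together after the values were seen. Of its 18 tested members 3 were lower (16.7%, beside 3.29% of all genes), ier2a, ier2b and junbb, and none higher. The replicate block left 1 lower, as did leaving out embryos 1 and 4 of 24 hpf, and thinning to the shallowest total left none. Without embryo 1 of 24 hpf 2 were lower and 1 higher.

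The spread among embryos of 24 hpf is described with the 6 genes most variable there. They were picked for that spread, so narrower ranges at 36 hpf follow in part from the choice. Of these 6 genes edgeR called none in the comparison of ages. krt17 was called lower by DESeq2 (adjusted p = 0.0413), with all 48 libraries in the fit (adjusted p = 0.0210) and with the 23 wild types (adjusted p = 0.0209), and dao.1 was called lower with the replicate number as a block (adjusted p = 0.0115). sesn3, a sestrin, had 191 CPM in embryo 1, 83.6 CPM in embryo 2 and 11.3 to 27.6 CPM in the other 4, against 16.7 to 42.6 CPM in the embryos of 36 hpf. krt17 had 554 and 393 CPM in embryos 1 and 2 of 24 hpf, 71.7 to 121 CPM in the other 4, and 63.4 to 133 CPM at 36 hpf. mgst2, dao.1 and si:ch1073-340i21.3 varied with no such division between embryos 1 and 2 and the rest.

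**Figure D5:**
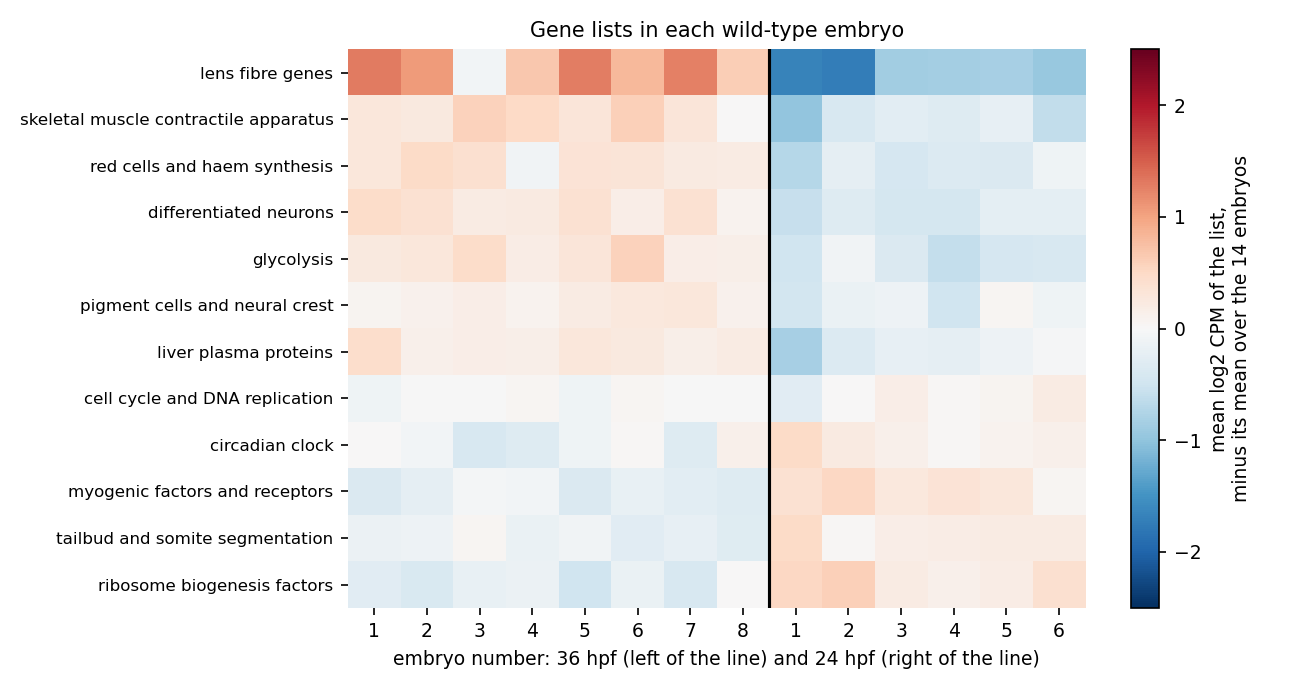
Each column is 1 wild-type embryo, 36 hpf left of the line and 24 hpf right of it, and each row is 1 of 12 gene lists. Colour gives the mean log2 CPM of the tested members minus the row's mean over the 14 embryos. Lens genes are lowest in embryos 1 and 2 of 24 hpf and, within 36 hpf, in embryo 3, while ribosome biogenesis genes are highest in embryos 1 and 2 of 24 hpf.

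Each embryo was also placed along the change. Its position is the gap between the average log2 CPM of 200 strongly rising genes and of 200 strongly falling ones, all picked with that embryo left out. At 0% an embryo sits at the mean of the other embryos of 24 hpf and at 100% at that of the others of 36 hpf. Those others also chose the genes, so a value between 0% and 100% does not by itself show an embryo ahead of or behind its age. The 8 embryos of 36 hpf lay between 69.2% and 102%, against 3.02% and 31.5% for the 6 of 24 hpf, so no embryo sat with the other age. Embryos 3 and 8 had the lowest positions at 36 hpf, 69.2% and 81.4%, and embryos 1 and 2 at 24 hpf, 3.02% and 14.4%. Not every list followed these positions. Embryo 3 of 36 hpf was lowest of its age in the lens list, at 4.67 log2 CPM. In the contractile apparatus list it stood at 8.48 log2 CPM, near the highest of its age, 8.49. The genes come from the comparison itself, so the position is a description.

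The 9 wild types of 48 hpf, scaled together with the 14, show what came after. The lens list stood at a median of 3.83, 5.70 and 7.57 log2 CPM at 24, 36 and 48 hpf, and crygm2d10 at 25.7, 218 and 1073 CPM (mean). Differentiated neurons continued likewise, at 3.65, 4.34 and 5.10 log2 CPM. Other lists had their steps at different times, red cell genes at 5.72, 6.41 and 5.94 log2 CPM, ribosome biogenesis at 5.24, 4.70 and 4.46, and cell cycle genes at 6.06, 6.02 and 5.28. Some single genes did not keep to 1 direction, per1b averaging 18.7, 3.77 and 10.0 CPM, nr1d2b 16.3, 6.40 and 18.2 CPM and pcdh8 12.4, 1.76 and 10.1 CPM at 24, 36 and 48 hpf. These are levels without a test of the later step.

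The same step was then set against that of the 18 noc2l -/- embryos of 24 and 36 hpf. No gene of 15543 was called for a difference between wild types and mutants in the change with age (edgeR's quasi-likelihood test, smallest adjusted p 0.733, 726 genes at an unadjusted p under 0.05), and limma voom called 0 with 741 at an unadjusted p under 0.05. pvalb1 changed by 2.62 in mutants beside 2.56 in wild types, per1b by -2.37 beside -2.33 and pcdh8 by -3.23 beside -2.82 on the log2 scale. The smallest p belonged to xbp1, a factor of the unfolded protein response (wild types minus mutants 0.76 ± 0.17). hspb9 changed by -0.38 in mutants beside -2.12 in wild types (difference -1.73 ± 0.41, adjusted p = 0.768). A p that misses the threshold does not show that the genotypes change alike.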

How the data were processed

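Members, lists, tests and alternatives were chosen with earlier results of these data known. The values are expected counts that the authors deposited, 1 row per gene symbol and 31658 rows. Per the submitters' processing notes, the tools were Salmon, fastp 0.21.0 and BWA 0.7.17-r1188, with build GRCz11. The order of steps, the annotation and the use of strand are not given in the sources used here. All but 2 values were whole, and counts were rounded.

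Genes were kept by filterByExpr (minimum count 10), scaled by TMM and tested with edgeR 4.0.16 in R 4.3.3 (robust quasi-likelihood fit, Benjamini-Hochberg adjustment), a method tested on simulated data. Tested genes hold 99.5% of counts. SE is the log2 fold change divided by the root of F. Log2 CPM uses a prior count of 2, and no CPM is compared between genes. Counts follow 3′ ends, not length. Library measures were compared by exact permutation, and their p-values were adjusted with scipy 1.17.1.

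Named genes were the 12 largest called rises and falls of at least 10 CPM (clone and locus names left out), the 2 largest called changes of at least 10 CPM in each list (or the member of highest mean), noc2l, and the 6 genes of at least 50 CPM most variable at 24 hpf. Other list and family members given as examples were chosen after their values were seen. The 16 families came from gene names after seeing the values. Alternatives comprised DESeq2 1.42.0, limma 3.58.1, other scalings, filters, sample sets and depths. Results on 3 genes that the lists hold are not reported here.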

Additional observations from a re-analysis of the deposited data

Results flagged for a closer look

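Dixon's criterion at the 95% level found an embryo apart from the others of its age in 19 of 178 groups of values (10.7%), where chance gives about 1 in 20. At 36 hpf embryo 3 was apart in 5 of them, as the lowest for crygm2d10 (51.3 CPM, the next being 139), crygm2d17 (81.0, next 209), nppa (8.65, next 22.2) and rbp2a (11.6, next 24.4), and as the highest for ednrab (15.6, next 7.78). The same embryo had the lowest position along the change at 36 hpf, 69.2%. That position is scored on strongly changing genes, which can include these, so it is not separate from the flags.

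At 24 hpf embryo 1 was the lowest for hbbe1.2 (407 CPM, next 781), hbbe1.3 (706, next 1528), col6a1 (10.0, next 17.1), lonrf1l (5.01, next 18.5) and rbp2a (4.59, next 11.9), and the highest for myl4 (48.4, next 11.5) and mymk (58.0, next 35.3). Embryo 4 of 24 hpf was the lowest for cdh17 (18.8 CPM, next 31.4) and for genes detected at a common depth (14419, next 15349).

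The other embryos apart were embryo 5 of 36 hpf for lyz (79.7 CPM, next 122), embryo 6 of 36 hpf for ntd5 (10.0, next 16.4), embryo 5 of 24 hpf for nsfa (11.5, next 6.95), embryo 3 of 24 hpf for sf3a1 (36.7, next 56.7) and embryo 2 of 24 hpf for vtna (1.32, next 4.41).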

How the results depend on the processing

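Of 77 called genes named by rule, 59 kept direction and call under every alternative that tested them, thinning to the shallowest library left aside. With that thinning the count was 29, including genes that it left untested, among them hjv, mpx, nppa, nsfa, pcdh8, pygl and tbl3. When some embryo was left out, 8 of the 77 lost the call. Leaving out 1 embryo at a time gave between 832 and 1124 called genes, 495 to 614 higher, 320 to 510 lower, and 365 to 465 with a 2-fold change. Library differences (36 minus 24 hpf) then ran over 2.0998 to 2.99 M counts, 0.398 to 0.610 points of mitochondrial share, 104 to 361 genes detected and -1.60 to -0.698 points of the top 10 genes' share. Thinning to the shallowest total gave 143 called, 116 higher, 27 lower and 111 with a 2-fold change, with fewer genes tested. Total-count scaling gave 869 lower genes, and no filter on low counts gave 677 with a 2-fold change, where more genes were tested. Replicate numbers did not pair the embryos (correlations of same-numbered deviations between -0.0224 and 0.0562). A fit with the replicate block called 770 genes, 280 of them lower, 723 shared with the main result, and in it krt92 (adjusted p = 0.111), crygm2d12 and 5 other named genes lost the call. It left 2 cell cycle and 5 splicing genes lower. Fits for the difference from mutants called 0 genes under each alternative.

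Signs turned for h1m (0.00244 without a filter, 0.00937 with the replicate block, 0.00171 with embryos 1 to 6 of each age, between -0.0513 and 0.0381 with 1 embryo left out, 0.0381 without embryo 4 of 24 hpf and 0.000812 without embryo 4 of 36 hpf, 0.0720 without embryos 1 and 4 of 24 hpf, and 0.0418 when thinned without embryo 4), for mgst2 (0.0280 with the block), and for si:ch1073-340i21.3 (-0.00281 with total counts, -0.0664 and -0.0619 without embryos 2 and 5 of 24 hpf, -0.106 without embryo 3 of 36 hpf, and between -0.106 and 0.326 with 1 embryo left out), all uncalled. Among genes named by rule, thinning to the shallowest total turned mcm3 (0.106), mgst2 (0.345) and noc2l (0.239). Among all 1056 genes called in the main result it turned the sign of 16. The cause was not tested. Depth limits genes near 10 CPM or below, where embryo 4 of 24 hpf holds fewer than 10 counts.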
